A study of Arabidopsis thaliana with 4 samples.

Results

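The 100 genes described here are the expressed genes whose signal differed most upwards on the arrays of an Arabidopsis thaliana knockout. The study hybridised total RNA of whole seedlings at developmental stage 1.02 to 4 Affymetrix ATH1 arrays, where several short probes, together called a probe set, report on a transcript. The CDB1 knockout group (2 arrays) is labelled as a complete knockout in the Col-0 background, with no allele or line named, and the Col-0 wild type group (2 arrays) is stock N1092. All seedlings grew on 1/2 MS10 medium under 16 h days at 20 °C and 80% humidity, and nothing says whether the replicates were separate cultures. By its title the series concerns a Polycomb binding protein, and its comparison is of transcript levels with and without CDB1.

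A gene qualified if its probe set named a single gene, its wild type mean signal was 20 or more, and both knockout signals lay above both wild type signals. Of 22746 probe sets, 13513 named a single gene, 8799 of these reached the wild type floor, and 1190 also had the order of signals required. These were ranked by the mean log2(signal + 16) of the knockout minus that of the wild type, and the first 100 were taken after leaving out PDF1.2b, AT4G22212, AT5G05600, AT3G15450, AT2G20670, AT2G05540 and AKINBETA1. Of these 7 genes, 6 would have ranked between 1 and 13, and AKINBETA1 would have ranked 168. Because the members were chosen by knockout minus wild type, their levels and differences are a description and carry no test.

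Polycomb group proteins are chromatin factors that keep genes silent by modifying histones, and in seedlings they are known for silencing seed, floral and other developmental regulators. Loss of such a factor is known to release genes that should be off. The genes here were required to have a wild type mean signal of 20 or more, which does not say in how many cells of the seedling they were on. Protein classes given below for genes known by a locus code are background knowledge and do not come from the files.

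The members ran from a difference of 1.33 on the log2(signal + 16) scale down to 0.42, with a median of 0.52. As folds on that scale these are 2.52, 1.33 and 1.43. The median difference was -0.02 over the 8799 eligible probe sets and -0.01 over the 15924 probe sets bright enough for a test. Only 2 members differed by 1 or more and 54 by 0.5 or more, so most of the list consisted of modest differences. Fewer eligible genes had both knockout signals above both wild type signals (13.5%) than below them (18.3%). When the same rule was turned round to take falls, the 100 differences ran from -3.11 to -0.48 with a median of -0.57. The floor applied to the wild type mean only, so genes dim in the wild type could not count as rises. Genes dim in the knockout could still count as falls, so the directions are not a like comparison.

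The members were about as bright as other eligible genes. Their wild type means ran from 20.6 to 678, with a median of 79.4 against 76.0 over the eligible probe sets, and their knockout means ran from 35.6 to 993. A wild type mean under 50 was found for 33 members and one of 500 or more for 6. Limma was fitted across all 15924 tested probe sets, and 6 of the 100 members passed an adjusted p of 0.05, against 0.139% of the 8636 eligible probe sets tested and 0.17% of all tested probe sets called higher. Nothing is read from that count, since the rule used the same contrast. The 6 were AT5G19110, AT5G35940, AT4G22610, AT5G04120, AT3G28270 and AT4G25370.

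**Figure D1:**
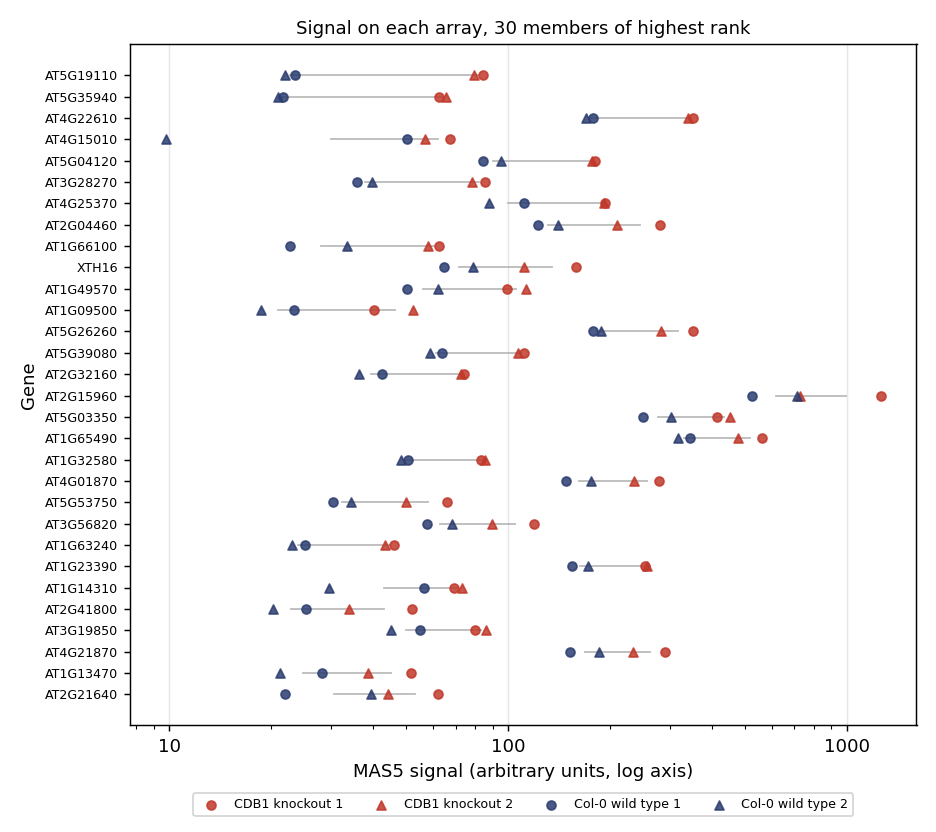
MAS5 signal (arbitrary units, log axis) of the 30 members of highest rank on each array, with knockout arrays in red and wild type arrays in blue, and a line joining the group means. AT5G19110, AT5G35940 and AT4G22610 show tight pairs, while AT4G15010 and AT2G15960 have a wide spread within a group.

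The 3 members of highest rank encode proteins of classes that cut, bind or carry other molecules, and their arrays agreed closely within each group. AT5G19110, a gene of the aspartyl protease class, read 84.1 and 79.1 in the knockout, against 23.5 and 22.0 in the wild type. AT5G35940, which encodes a jacalin-type lectin, a carbohydrate-binding protein, read 62.6 and 65.5 in the knockout, against 21.7 and 21.0 in the wild type. AT4G22610, which encodes a protein of the lipid transfer type, read 351 and 341 in the knockout, against 179 and 170 in the wild type. In these 3 genes the lowest knockout value stood 1.27, 1.06 and 0.87 above the highest wild type value on the log2 scale, the widest gaps among the members. AT5G19110 and AT5G35940 were dim in the wild type, near the floor of 20, and their differences moved with the pseudocount. The difference of AT5G19110 ranged from 0.75 to 1.80 over the alternatives and that of AT5G35940 from 0.59 to 1.54, while the brighter AT4G22610 stayed between 0.78 and 0.99.

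The other protease genes among the members were a plastid protease subunit, a second aspartyl protease gene and a pair of subtilases. AT4G25370 encodes a subunit associated with the plastid Clp protease, which degrades proteins of the chloroplast stroma. It read 193 and 192 in the knockout, against 111 and 88.1 in the wild type, so its knockout arrays agreed and its wild type arrays were further apart. AT1G09750, the other gene of the aspartyl protease class, read 364 and 361 in the knockout, against 242 and 282 in the wild type. The subtilases are secreted serine proteases, and SBT4.12 read 75.6 and 71.8 in the knockout, against 53.0 and 45.3 in the wild type. SBT3.3 read 84.3 and 72.5 in the knockout, against 54.8 and 51.6 in the wild type. All 5 protease genes were higher on knockout array 1 than on knockout array 2, as were 67 of the 100 members and 52.1% of eligible probe sets. The knockout arrays were nearly equal in AT1G09750, and in AT4G25370 they differed by less than 1 unit of signal.

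Lectins, which bind sugars on proteins and surfaces, made up 4 of the members. Besides AT5G35940, the jacalin-type genes were AT1G33790 and AT1G52000. AT1G33790 read 43.7 and 34.9 in the knockout, against 14.3 and 29.9 in the wild type, so the second arrays of the groups nearly met. AT1G52000 read 102 and 118 in the knockout, against 75.6 and 72.8 in the wild type. AT5G03350, of the legume lectin class, was the brightest of the 4 at 414 and 451 in the knockout, against 250.5 and 302 in the wild type. The differences of the 4 lectin genes ran from 0.48 to 1.10, with a median of 0.59.

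Genes for cell wall enzymes included a pair of xyloglucan endotransglucosylase/hydrolases, which cut and rejoin the xyloglucan chains that tether cellulose. XTH16 read 159 and 111 in the knockout, against 64.8 and 78.9 in the wild type. EXGT-A3 (also known as XTH27) read 675 and 808 in the knockout, against 510.5 and 503 in the wild type. The knockout array that read higher was array 1 for XTH16 and array 2 for EXGT-A3. AT2G41800, which encodes a secreted protein of a plant-specific wall family, read 52.2 and 34.0 in the knockout, against 25.4 and 20.3 in the wild type. AT1G74910, related to the pyrophosphorylases that make nucleotide sugars, read 252 and 187 in the knockout, against 138 and 146 in the wild type. AT4G16260, of the beta-glucanase class, had a smaller difference of 0.44, at 345.5 and 333 in the knockout, against 258 and 235 in the wild type.

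A set of 11 members act, or are classed as acting, in oxidation and reduction. Their differences ran from 0.42 to 0.76. AT1G49570, a class III peroxidase gene, was the highest ranked, at 99.0 and 113 in the knockout, against 50.4 and 62.0 in the wild type. AT1G09500, related to cinnamyl alcohol dehydrogenases of lignin synthesis, read 40.2 and 52.5 in the knockout, against 23.3 and 18.6 in the wild type. Of the genes for flavin oxidases of the berberine bridge class, AT1G26380 read 57.2 and 43.9 in the knockout, against 32.5 and 25.5 in the wild type. Its next neighbour on chromosome 1, AT1G26390, belongs to the same class and read 63.8 and 75.8 in the knockout, against 45.9 and 46.1 in the wild type. The knockout arrays thus stood in opposite order in these adjacent genes. AT2G34810, a gene of that class elsewhere in the genome, read 161 and 174 in the knockout, against 113 and 129 in the wild type, and had the smallest difference of the 11.

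GRX480 (also known as ROXY19), a glutaredoxin that interacts with TGA transcription factors in defence signalling, read 197 and 188 in the knockout, against 125 and 135 in the wild type. CYP71B24, a cytochrome P450, read 81.1 and 51.6 in the knockout, against 39.8 and 43.5 in the wild type, so its knockout arrays lay much further apart than its wild type arrays. AT2G25450, an oxoglutarate-dependent dioxygenase that hydroxylates the side chain of glucosinolates, was among the brighter members. It read 673 and 626 in the knockout, against 489 and 448 in the wild type, with a difference of 0.46. The reductase genes AT5G58800, AT1G04420 and AT2G29340 had differences of 0.49, 0.49 and 0.48.

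Enzymes that attach acyl, sugar or methyl groups to small molecules accounted for 6 members, all dim, with wild type means from 22.9 to 61.5. The BAHD acyltransferase gene AT5G39080 read 112 and 107 in the knockout, against 64 and 58.9 in the wild type. AT3G50280, of the same class, read 35.4 and 42.6 in the knockout, against 25.4 and 20.4 in the wild type. AT5G47950, also of that class, read 67.5 and 73.9 in the knockout, against 32.7 and 62.4 in the wild type. In AT5G47950 the wild type arrays stood 0.69 apart on the log2 scale and the gap between groups was 0.09, and its difference of 0.49 became 0.14 without wild type replicate 1. The methyltransferase gene AT2G32160 had tighter arrays, at 74.1 and 72.4 in the knockout, against 42.4 and 36.4 in the wild type. The glucosyltransferase gene UGT73B1 read 81.8 and 66.5 in the knockout, against 49.2 and 52.8 in the wild type, and the methyltransferase gene AT3G62000 had a difference of 0.42.

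Small secreted and defence-related proteins were also among the members. AT1G66100, which encodes a thionin, a small antimicrobial peptide, read 62.5 and 58.1 in the knockout, against 22.7 and 33.5 in the wild type. AT2G43530, a defensin-like gene, was far brighter, at 871 and 755 in the knockout, against 522 and 602 in the wild type. Their differences on the log2 scale were 0.80 and 0.52. AT4G26120, related to the NPR co-receptors of salicylic acid, read 41.8 and 48.3 in the knockout, against 27.5 and 28.4 in the wild type. AT5G59670, a leucine-rich repeat receptor kinase gene, and AT5G23840, a gene of the lipid recognition class, had differences of 0.43 and 0.52.

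**Figure D2:**
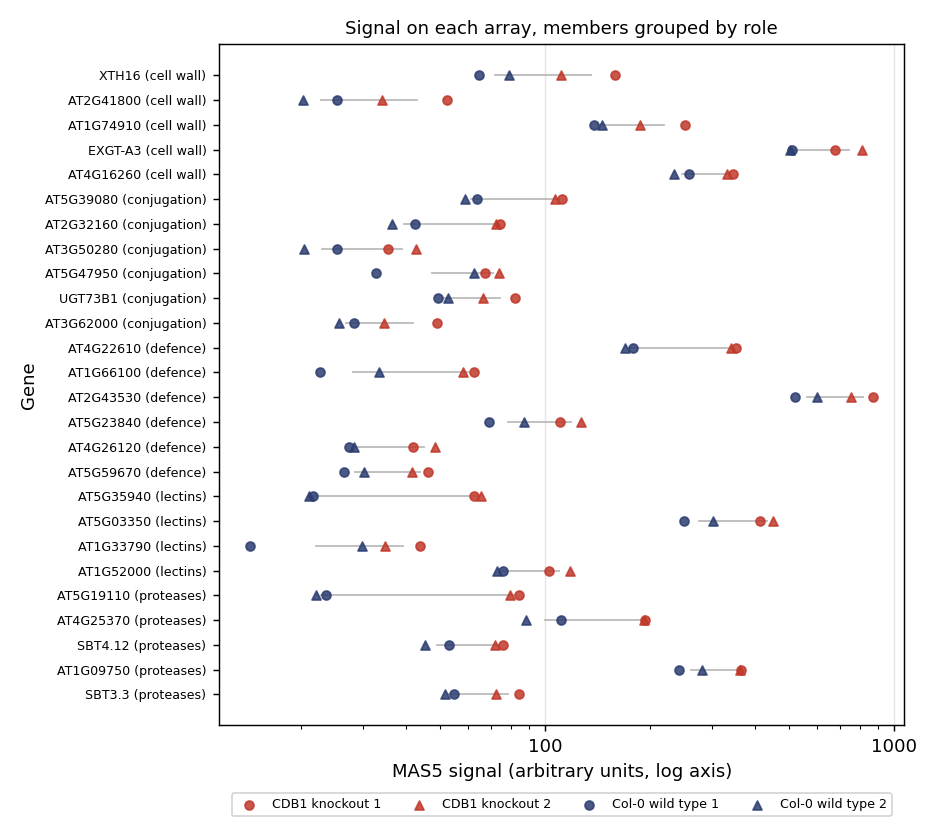
MAS5 signal (arbitrary units, log axis) on each array for the members in 5 role groups, with knockout arrays in red and wild type arrays in blue, and a line joining the group means. The 4 lectin and 5 protease genes each span dim and bright signals, and the groups nearly meet in AT1G33790 and AT5G47950.

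In central metabolism, MCCA and AT5G38710 stand for amino acid breakdown in mitochondria. MCCA, a subunit of the methylcrotonyl-CoA carboxylase of leucine catabolism, read 103 and 90.2 in the knockout, against 54.8 and 68.7 in the wild type. AT5G38710, a proline dehydrogenase gene, read 83.2 and 68.4 in the knockout, against 45.8 and 48.0 in the wild type. Both differences were 0.54. AT5G04120, of the phosphoglycerate mutase class, ranked higher, with 180 and 176 in the knockout, against 84.5 and 95.5 in the wild type. AT1G30820, a CTP synthase gene of nucleotide synthesis, read 196.5 and 235 in the knockout, against 154 and 130.5 in the wild type. AT5G44520, related to an isomerase of the pentose phosphate pathway, had a difference of 0.55, and AT2G31810, related to the regulatory subunit of acetolactate synthase, had one of 0.48.

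Among transporters, SAG29 (also known as SWEET15), a sucrose exporter named for its rise in senescing leaves, read 59.5 and 65.4 in the knockout, against 38.5 and 37.1 in the wild type. GLR3.3, a glutamate receptor-like channel that carries wound signals between leaves, read 90.9 and 62.1 in the knockout, against 50.8 and 47.8 in the wild type. AT5G14120, of the major facilitator class, was the brightest member in the wild type, at 895.5 and 1005 in the knockout, against 755 and 602 in the wild type. AT4G15010, of the mitochondrial carrier class, had the loosest wild type arrays of all members. It read 67.6 and 56.7 in the knockout, against 50.4 and 9.8 in the wild type, and its difference was 0.91 with all arrays, 1.60 without wild type replicate 1 and 0.23 without wild type replicate 2. AT1G15180, a MATE-type exporter gene, had a difference of 0.48.

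Genes of regulation numbered 5. AT1G23390 encodes a Kelch-type F-box protein that targets chalcone synthase, the entry enzyme of flavonoid synthesis, for degradation. It read 254 and 257 in the knockout, against 154.5 and 173 in the wild type, and its arrays agreed within each group. AT3G10040 (also known as HRA1), which attenuates the response to low oxygen, read 122 and 151 in the knockout, against 87.6 and 92.6 in the wild type. AT5G61590 (also known as DEWAX), a repressor of wax synthesis, read 770.0 and 638 in the knockout, against 495 and 526 in the wild type. AT3G19850, of the family of phototropism adaptors, and AT5G53750, a CBS domain gene, had differences of 0.59 and 0.61.

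Several members encode proteins of organelles or of protein quality control. AT1G32580, of the family of organellar RNA editing factors, read 83.4 and 85.5 in the knockout, against 50.7 and 48.3 in the wild type, and its arrays agreed within each group. AT2G21640, a mitochondrial stress-responsive gene, read 62.0 and 44.3 in the knockout, against 22.0 and 39.5 in the wild type. There the second arrays of the groups stood close together. AT3G10060, an immunophilin gene of the chloroplast, had a difference of 0.54, AT1G33330, of the peptide chain release factor class, one of 0.49, and AT5G66470, an organellar GTPase gene, one of 0.45. AT4G21870, of the small heat shock protein class, read 291 and 234 in the knockout, against 153 and 186 in the wild type.

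A total of 60 members fall into these 11 groups by role, which were formed after the values were seen and so get no test. The TRAF-like group held AT5G26260 and AT5G26280, which lie with 2 genes between them on chromosome 5. AT5G26260 read 350.5 and 283.5 in the knockout, against 178 and 189 in the wild type. AT5G26280 read 297 and 207 in the knockout, against 168 and 195 in the wild type, and its gap between groups was only 0.08. The gene AT5G26270, which lies between them, did not share the pattern, at 178.5 and 199 in the knockout, against 174 and 247 in the wild type.

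The remaining 40 members, AT4G21870 among them, had differences from 0.42 to 0.86 with a median of 0.49, and many have no described function. AT3G28270 led them with 85.5 and 78.2 in the knockout, against 35.9 and 39.7 in the wild type. AT2G04460, annotated as a pseudogene in RefSeq and the only member that is not protein-coding, read 281 and 210 in the knockout, against 123 and 140.5 in the wild type. AT2G15960 was bright but uneven, at 1259 and 727 in the knockout, against 524 and 712 in the wild type. Its gap of 0.03 was the smallest of all members, and its difference was 0.63 with all arrays but 0.24 without knockout replicate 1. AT1G65490 read 561 and 476 in the knockout, against 344 and 318 in the wild type. AT4G01870, of the TolB-like class, read 278 and 235 in the knockout, against 149 and 176 in the wild type. AT3G62550, of the universal stress protein class, read 884 and 664.5 in the knockout, against 522 and 541 in the wild type, and AT3G15980, a subunit of the COPI coat of Golgi vesicles, had a difference of 0.54.

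At the edge of the list the order rested on the third decimal and beyond. The last members, AT3G15900, AT3G62000 and AT5G12050, all had differences of 0.42, and the first genes outside, AT3G49140, SKP2A and AT5G14260, had 0.42, 0.41 and 0.41. AT5G12050, just inside, read 519 and 551 in the knockout, against 402.5 and 391 in the wild type. AT3G49140, just outside, read 92.6 and 86.9 in the knockout, against 66.8 and 59.8 in the wild type.

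The arrays did not contribute equally. Knockout array 1 read higher than knockout array 2 in 67 of the 100 members, against 52.1% of eligible probe sets and 57.1% of the 1190 with the required order. The median difference from the wild type mean was 0.59 on knockout array 1 and 0.46 on knockout array 2. On both knockout arrays 59 members stood at least 0.4 above the wild type mean, 31 did so only on array 1 and 10 only on array 2. Wild type array 2 read higher than wild type array 1 in 55 members, against 57.2% of eligible probe sets. Over all tested probe sets, the correlation was 0.982 between the knockout arrays and 0.977 between the wild type arrays. Between the groups it ran from 0.975 to 0.984. The highest value was that of wild type array 1 with knockout array 2, so the arrays did not sort by group. The gap between groups exceeded the spread within both groups in 62 members and was under 0.1 in 7. The control probe set for 25S ribosomal RNA read 2196 and 992 in the knockout, against 556 and 841 in the wild type, so it too was highest on knockout array 1. The actin control Athal-Actin_5_r_at was higher in the knockout without overlap, at 186 and 199, against 118 and 139 in the wild type. Athal-Actin_3_f_at was lower without overlap, at 930.5 and 965 in the knockout, against 1111 and 1004. In r2-At-Actin-5_s_at the groups overlapped, at 549 and 804 in the knockout, against 881 and 607. The part of these controls in the members' pattern was not tested.

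**Figure D3:**
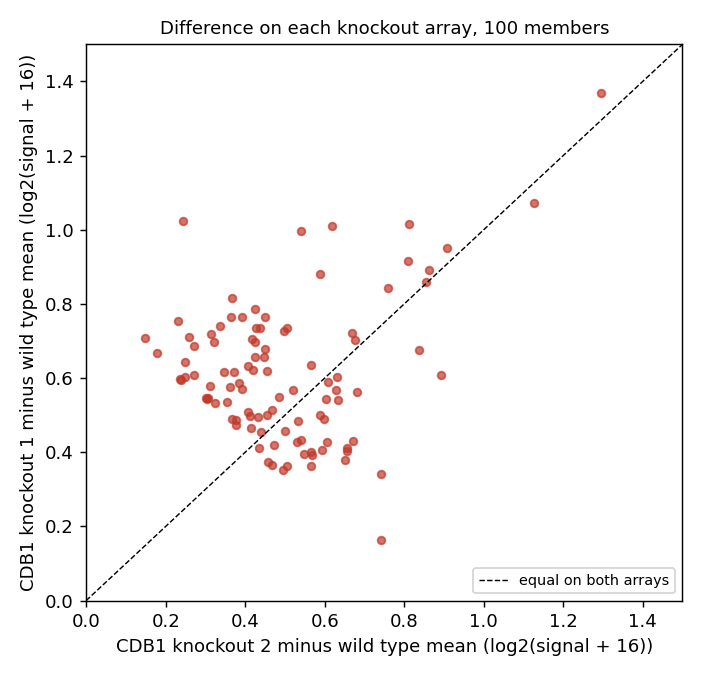
Difference from the wild type mean (log2(signal + 16)) on knockout array 1 (vertical axis) and knockout array 2 (horizontal axis), with 1 point for each of the 100 members and a dashed line where both are equal. More points lie above the line, in 67 of 100 members, and AT5G19110 and AT5G35940 stand at the upper right.

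Membership depended on single arrays. When the rule was applied without knockout replicate 1, 52 of the 100 members stayed among the first 100, and without knockout replicate 2, 62 did. Without wild type replicate 1 it was 46 and without wild type replicate 2 it was 55. Only 18 members stayed in all 4 cases, 16 of them among the first 20 by rank, and all 18 also stayed under both normalizations and both other pseudocounts. They were AT5G19110, AT5G35940, AT4G22610, AT5G04120, AT3G28270, AT4G25370, AT2G04460, AT1G66100, XTH16, AT1G49570, AT5G26260, AT5G39080, AT2G32160, AT1G65490, AT1G32580, AT4G01870, AT1G63240 and AT1G23390. AT1G63240, a gene without a described function, read 46.2 and 43.3 in the knockout, against 25.1 and 23.0 in the wild type. Leaving out an array cannot break the required order of signals in a member. A member dropped out where other genes ranked above it or where it fell under the wild type floor. Staying is thus tied to the difference that the rule ranked, and it is no separate sign of reliability. AT4G16260 stayed in 0 of the 4 cases, though its difference lay between 0.38 and 0.50 in them.

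Several members belong to families whose other genes were also measured, and the other genes of these families lay on both sides of 0. The families were formed by gene symbol after the values were seen, so they get counts only. Of 7 eligible xyloglucan endotransglucosylase/hydrolase genes, 3 had both knockout signals above both wild type signals and 1 had both below, with a median difference of 0.01. XTH18 stood at the other end of that family, at 70.3 and 49.2 in the knockout, against 64.8 and 109 in the wild type. Of 13 eligible SWEET genes, 2 were above and 3 below without overlap, with a median of -0.09, and SWEET13, at 75.9 and 64.3 in the knockout, against 102 and 111 in the wild type, opposed SAG29. Of 30 eligible UDP-glycosyltransferase genes, 9 were above and 3 below, with a median of 0.05. Of 11 CYP71B genes, 2 were above and 0 below, with a median of 0.05. Among 6 glutamate receptor-like genes, 2 were above and 2 below, with a median of -0.04. For 5 subtilases, 3 were above and 1 below, with a median of 0.14. Over all eligible genes 13.5% were above and 18.3% below. The family counts above include the members, which the rule required to be above, and each family was taken because it holds a member. No excess over 13.5% is therefore read from them.

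**Figure D4:**
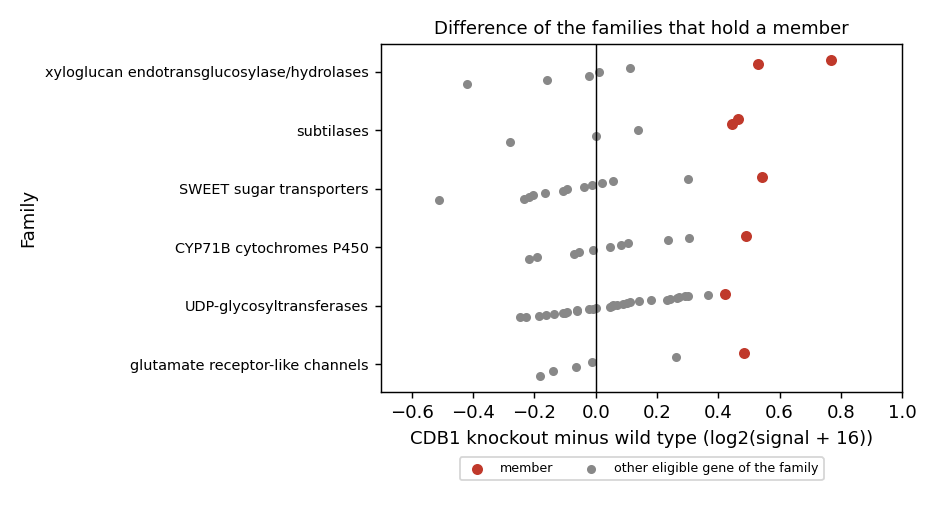
Difference between knockout and wild type (log2(signal + 16), horizontal axis) for eligible genes of 6 families, with members in red and the other genes in grey. The members were chosen for their rise, so their place at the upper end of each family follows from the rule. The other genes spread on both sides of 0.

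Among the pathway lists, 2 held a member. Of the 23 listed genes of sugar starvation and darkness, 4 were named by a probe set and tested, 3 lay above 0 and none passed the test, with a median difference of 0.32. The 3 above 0 include MCCA, chosen for its rise, and AKINBETA1, which the rule leaves out by name. Nothing is therefore read from that count or the median. AT4G33150 lay below 0, at 123 and 132 in the knockout, against 142 and 132.5 in the wild type. MCCA was the member, and IVD, the dehydrogenase that acts before it in leucine breakdown, read 92.6 and 87.9 in the knockout, against 75.9 and 66.5 in the wild type. The groups did not overlap in IVD, but its difference of 0.29 was too small for the list. Of the 12 listed genes of the plastid Clp protease, 4 were tested, 1 passed as higher, against 0.17% of all tested probe sets, and the median difference was 0.18. The gene that passed was the member AT4G25370, chosen on the same contrast, so nothing is read from that count or from the median, which includes it. The core subunit CLPP4 read 463 and 372 in the knockout, against 371 and 330 in the wild type, and the other 2, AT4G12060 and AT1G09130, had differences of 0.12 and 0.01. In the jasmonate list 3 of 23 genes were named and 2 tested, and 1 passed as higher (0.17% over all tested probe sets), JRG21, whose wild type signals were too low for the list of members. The cold and dehydration list (3 of 10) and the Polycomb and trithorax list (1 of 15) held no member and no gene that passed. Of the 19 floral and developmental Polycomb targets only AGL19 was named, at 17.5 and 14.5 in the knockout, against 20.0 and 21.6 in the wild type, too dim to be tested.

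Markers of root and green tissue were present, as the label of whole seedlings implies. Of 14 root markers, 3 were named, none at 0, and their summed signal was 2659 and 2976 in the knockout, against 3046 and 2699 in the wild type. Of 8 green tissue markers, 2 were named, none at 0, with a summed signal of 4494 and 4493 in the knockout, against 4190 and 3859 in the wild type. The root sums overlapped between the groups and the green tissue sums did not, but single genes differed from their sums. PYK10 made up nearly all of the root sum, while EXPA7, at 55.9 and 55.9 in the knockout, against 28.7 and 50.3 in the wild type, was higher without overlap. EXPA18 was also higher without overlap, at 58.5 and 60.9 in the knockout, against 51.0 and 49.5 in the wild type. Of the green tissue genes, RCA overlapped, at 2430 and 2685 in the knockout, against 2672 and 2292 in the wild type. LHCB4.1 did not, at 2064 and 1808 in the knockout, against 1518 and 1568 in the wild type. None of these 4 genes or PYK10 passed the test. In RNA of whole seedlings, more cells of a type and more RNA per cell cannot be told apart, and the part of tissue make-up in the members' differences was not tested. No seed marker of the 9 listed was named by a probe set.

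Chromosome 1 held 35 of the 100 members, against 25.9% of eligible genes, and chromosomes 2, 3, 4 and 5 held 12, 19, 11 and 23, against 14.7%, 20.0%, 14.6% and 23.6%. The only members that lay next to each other were AT1G26380 and AT1G26390, and AT3G10040 and AT3G10060 had 1 gene between them. Of the protein-coding genes within 2 steps of a member, 140 were eligible and no members themselves, and 23 of them (16.4%) had both knockout signals above both wild type signals, against 13.5% of all eligible genes. Their median difference was -0.01, against 0.52 for the members. All 100 probe sets were of the kind designed to read a single gene, as were 99.1% of eligible probe sets. One gene, AT5G44820, a glycosyltransferase-like gene, was read by a second probe set, and there the pattern was missing. Its member probe set read 49.4 and 81.6 in the knockout, against 44.0 and 40.8 in the wild type, while the other read 56.5 and 42.3 in the knockout, against 49.3 and 41.1 in the wild type.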

How the data were processed

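The deposited table holds linear intensity values (signal) per probe set, made by the authors with MAS5, per the submitters' processing notes. For its settings and detection calls, the sources used here give nothing. The 64 control probe sets were set aside. Signals were used as deposited on the log2(signal + 16) scale, which understates the change of dim genes. Taking the 7 genes out of a finished top 100 instead would leave the first 94 members. Counts of calls come from limma 3.58.1 in R 4.3.3 (lmFit, eBayes with an intensity trend, two-sided, Benjamini-Hochberg) over the 15924 probe sets with a mean at or above the 30th percentile, 19.5. The fit was also run on simulated data, with planted differences larger than those of most members, so that check does not cover differences as small as theirs. With 2 arrays per group, an exact permutation test cannot go below p = 0.333, and p-values rest on array-to-array spread that may be technical. Gene names come from the platform's annotation, which can be old (503 probe sets named several genes and 8730 were not listed). All 100 members matched RefSeq's TAIR10.1 table, used for chromosomes and neighbours only, since the array's build is not given. The members, lists and role groups were chosen with earlier results of these data known. Genes named were those of high rank, at the edge of the list, brightest, adjacent, with a second probe set or with the widest and narrowest gaps, and examples of each list; others were chosen after their values were seen. Keyword classes, promoter motifs and protein identity were planned but not used here, and the level of CDB1 is not analysed here.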

Additional observations from a re-analysis of the deposited data

How the results depend on the processing

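With 1 array left out, 46 to 62 of the 100 members stayed among the first 100, 0 to 6 were called by limma, and 5 to 45 probe sets in all were called higher, against 6 and 27 with all arrays. The 0 arose without knockout replicate 1, where 55 members had an unadjusted limma p under 0.05. With no filter on dim probe sets limma called 0 probe sets higher and 0 members, while 560 and 87 had an unadjusted p under 0.05. With the replicate number as a block limma called 45 probe sets higher and 11 members. The numbers share no stated batch, and the replicate differences of the groups ran opposite ways (correlation -0.301 across probe sets), so a crossed pairing, added after seeing the data, was run and called 107 and 30. The cause of these shifts was not tested. Under the other normalizations, pseudocounts, wild type floors and with overlap allowed, 78 to 100 members stayed, and under the normalizations and pseudocounts the median difference of the members lay between 0.37 and 0.60. The rule itself fixes the direction of the members when an array is left out or the pseudocount changes, so their direction there says nothing of stability. Outside the members, the log2 difference of AT1G09130 turned to -0.00253 after quantile normalization and ranged from -0.11 to 0.12 with 1 array left out, and with 1 array left out the log2 difference of AT4G12060 ranged from -0.019 to 0.25, the log2 difference of PYK10 from -0.14 to 0.053 and the log2 difference of RCA from -0.064 to 0.16. Precision is limited by the number of arrays, and 33 members had a wild type mean under 50, where the pseudocount weighs most.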
